A study of Homo sapiens with 24 samples.

Results

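The RNAs described here were those recovered with GFP-tagged RUVBL1 from untreated HCT116 cells, a human colorectal carcinoma line in which GFP had been knocked in at the RUVBL1 gene. Lysates were passed over beads coupled to an anti-GFP binder (GFP beads, 2 libraries) or over uncoupled agarose beads (2 libraries), so 4 of the 24 libraries of the series carry this comparison. All 28307 genes of the count table were considered, and 15976 passed the filter on low counts and were tested. The other groups drawn on were the same line given puromycin (100 µg/mL for 30 min) or CB-6644 (0.5 µM for 16 h). Untreated cells of a second HCT116 line, with GFP knocked in at RPAP3, were drawn on too. Each of these groups had 2 GFP bead and 2 uncoupled bead libraries. Libraries of the RUVBL1 line given both CB-6644 and puromycin, and of the RPAP3 line given puromycin, at the same doses, entered the fits only. The uncoupled bead libraries came from the same knock-in lines and carry the tag too. The labels do not say whether a line was a single clone or whether replicates were separate cultures. Cells without the tag and input RNA were not analysed here, so recovery could not be set against the amount of each RNA in the cell.

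RUVBL1 and its partner RUVBL2 are AAA+ ATPases that form a ring. Together with the scaffold RPAP3 and the adaptor PIH1D1 they make up R2TP, an HSP90 co-chaperone that helps to put together RNA polymerases, snoRNPs, the U5 snRNP and kinases of the PIKK family. RUVBL1 and RUVBL2 are also stable subunits of the INO80, SRCAP and TIP60 chromatin remodelling complexes. An mRNA can be recovered with a chaperone when the chaperone holds the nascent protein on the ribosome. Puromycin releases nascent chains from ribosomes, and CB-6644 inhibits the RUVBL1/2 ATPase.

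The 4 libraries held 25146984 and 20991983 counts on GFP beads, against 22507934 and 10974407 counts on uncoupled beads. Levels are given as CPM, reads per 1000000 counts of the TMM-scaled library. On the log2 scale they correlated at 0.97 across genes between the GFP bead libraries and at 0.949 between the uncoupled bead libraries. Neither pair agreed within sampling noise: chi-square divided by its degrees of freedom was 69 for GFP beads and 84.9 for uncoupled beads, and every library was counted separately. Uncoupled replicate 2 stood apart from the other 15 libraries of the line on the second principal component, at -89.4 where the next lowest was -31.7. On the first component GFP replicate 2 given CB-6644 lay at -111. Before TMM scaling, markers of colon epithelium summed to 3740 and 3720 CPM over 14 genes on GFP beads, against 5380 and 3630 CPM on uncoupled beads. The keratins KRT8, KRT18 and KRT19 held most of that sum (1770, 853 and 889 CPM in GFP replicate 1). KRT20, LGALS4, VIL1 and GPX2 did not exceed 0.915 CPM in any of the 4 libraries. Markers of blood, stroma and liver, 18 genes of which 3 were at 0 in all 4 libraries, were summed likewise. They came to 17.2 and 14.3 CPM on GFP beads, against 19.1 and 20.8 CPM on uncoupled beads.

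On GFP beads 146 genes were higher than on uncoupled beads (0.914% of the genes tested) and 3 were lower (0.0188%), by the quasi-likelihood test of edgeR at a Benjamini-Hochberg adjusted p under 0.05. The log2 ratio (GFP beads over uncoupled beads) had a median of 1.22 over the 146 genes and of -0.04 over all genes tested. It was 1 or more for 120 of the 146 genes, as for 5.35% of all genes tested, and 2 or more, a difference of at least 4-fold, for 26. Both GFP bead libraries lay above both uncoupled bead libraries for all 146 genes, as they did for 18.6% of the genes tested. The number called rested on single libraries: 58 genes were higher without GFP replicate 1, 88 without GFP replicate 2, 184 without uncoupled replicate 1 and 40 without uncoupled replicate 2. Of the 146 genes, 37 were among the 40 called without uncoupled replicate 2.

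The called RNAs took 7.346% and 4.81% of the GFP bead counts, against 0.8986% and 0.6327% of the uncoupled bead counts. The 5 most abundant of them on GFP beads, PRPF8, EP400, POLR2A, SRCAP and GOLGA4, alone took 4.971% and 3.047% of the GFP bead counts, against 0.1382% and 0.05773% of the uncoupled bead counts. PRPF8 was the single largest, with 2.06% (95% Wilson interval 2.055% to 2.066%) and 1.367% (1.362% to 1.372%) of the counts on GFP beads. On uncoupled beads it took 0.02926% (0.02856% to 0.02998%) and 0.01167% (0.01105% to 0.01233%). These intervals cover counting error only. With 2 libraries against 2 the smallest exact two-sided p for a single value is 0.333, so the shares are given without a test. Of the called genes 142 were protein-coding (1.04% of 13635 tested) and 4 were snoRNA genes (1.88% of 213), while 0 of 1387 long non-coding RNA genes were called higher.

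**Figure D1:**
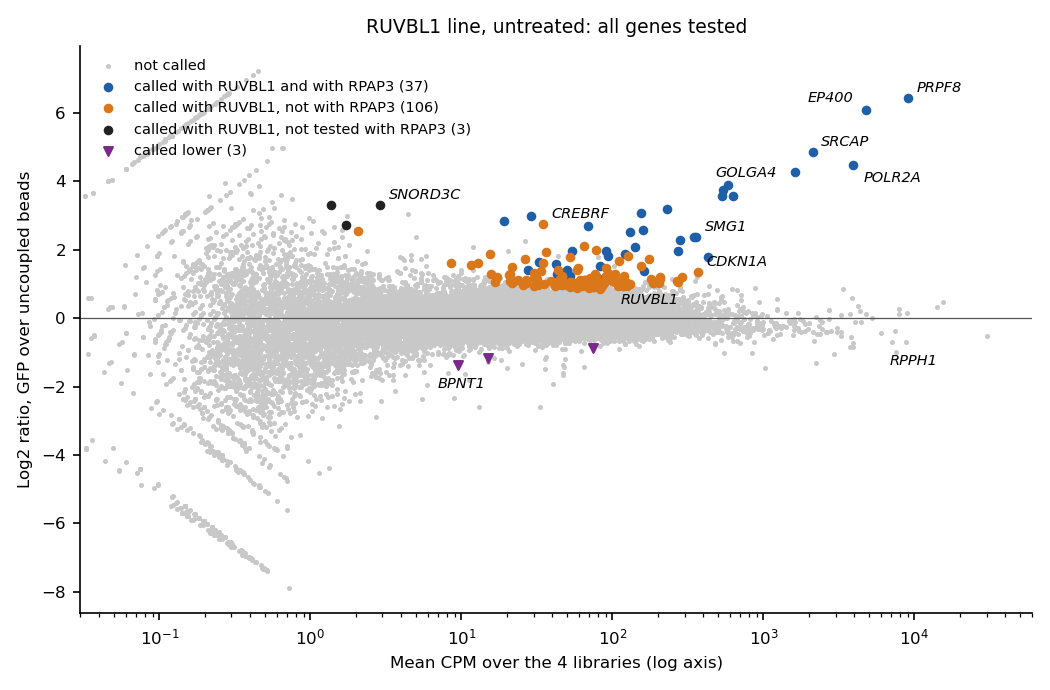
Each point is 1 of the 15976 genes tested, with the mean CPM over the 4 libraries on a log axis and the log2 ratio (GFP over uncoupled beads) on the vertical axis. Genes called higher are coloured by whether they were also called with RPAP3 (37), not called with RPAP3 (106) or not tested there (3). PRPF8 at 6.44 and EP400 at 6.07 stand at the upper right, and most of the genes not called with RPAP3 lie near 1.

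Among spliceosomal proteins the highest ratio belonged to PRPF8, the scaffold at the heart of the U5 snRNP, whose gene lies at chr17:1650629-1684867 in hg38. It stood at 22109 and 13858 CPM on GFP beads, against 286 and 126 CPM on uncoupled beads. The lower GFP bead library was far above the higher uncoupled one, and the log2 ratio was 6.44 ± 0.45 (SE, adjusted p = 1.04e-08 by edgeR). EFTUD2, the GTPase of the U5 snRNP (chr17:44849948-44899445), stood at 1641 and 309 CPM on GFP beads, against 105 and 57.6 CPM on uncoupled beads. Its groups did not overlap, but the GFP bead libraries differed from each other by a larger factor than the lower of them differed from uncoupled replicate 1, and the log2 ratio of 3.58 ± 0.69 had an adjusted p of 0.048. That call was lost in 7 of 16 alternative settings, with an adjusted p of up to 0.486. CD2BP2, a U5 assembly factor that is absent from the mature tri-snRNP, was 0.88 ± 0.21 higher (adjusted p = 0.0476) and was lost in 7 of 16 settings too. Of 13 U5 proteins and assembly factors tested, these 3 were called and the median log2 ratio was 0.29. SNRNP200, the large helicase of U5, had a log2 ratio of 0.29 ± 0.31, and of 8 U4/U6 proteins 0 were called (median -0.14). At 0.914% called higher over all genes tested, 0 of 8 does not set that list apart.

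The ATPases of the remodelling complexes that hold RUVBL1 and RUVBL2 were recovered together with 1 further subunit. EP400, the ATPase of TIP60/p400 (chr12:131949942-132080460), stood at 10958 and 7834 CPM on GFP beads, against 194 and 84.1 CPM on uncoupled beads, a log2 ratio of 6.07 ± 0.44. SRCAP (chr16:30699171-30741409) stood at 5067 and 3152 CPM on GFP beads, against 200 and 82.6 CPM on uncoupled beads, a ratio of 4.86 ± 0.40. INO80 (chr15:40978880-41116280) stood at 223 and 156 CPM on GFP beads, against 65.7 and 37.8 CPM on uncoupled beads, a ratio of 1.87 ± 0.25. In each of these genes every GFP bead library was above every uncoupled bead library. BRD8, the bromodomain subunit of TIP60 (chr5:138139770-138178630), stood at 527 and 303 CPM on GFP beads, against 52.3 and 38.2 CPM on uncoupled beads, a ratio of 3.19 ± 0.26. The other 26 of the 30 tested members were not called, and the list's median of 0.05 lay near that of all genes tested. KAT5, the acetyltransferase of TIP60, had a log2 ratio of -0.26 ± 0.23 (adjusted p = 0.717). TMEM265 was also called, with a ratio of 2.99 ± 0.33, and its gene shares 768 bases with the end of SRCAP on the same build, where their reads could not be told apart. No other pair of called genes overlapped.

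**Figure D2:**
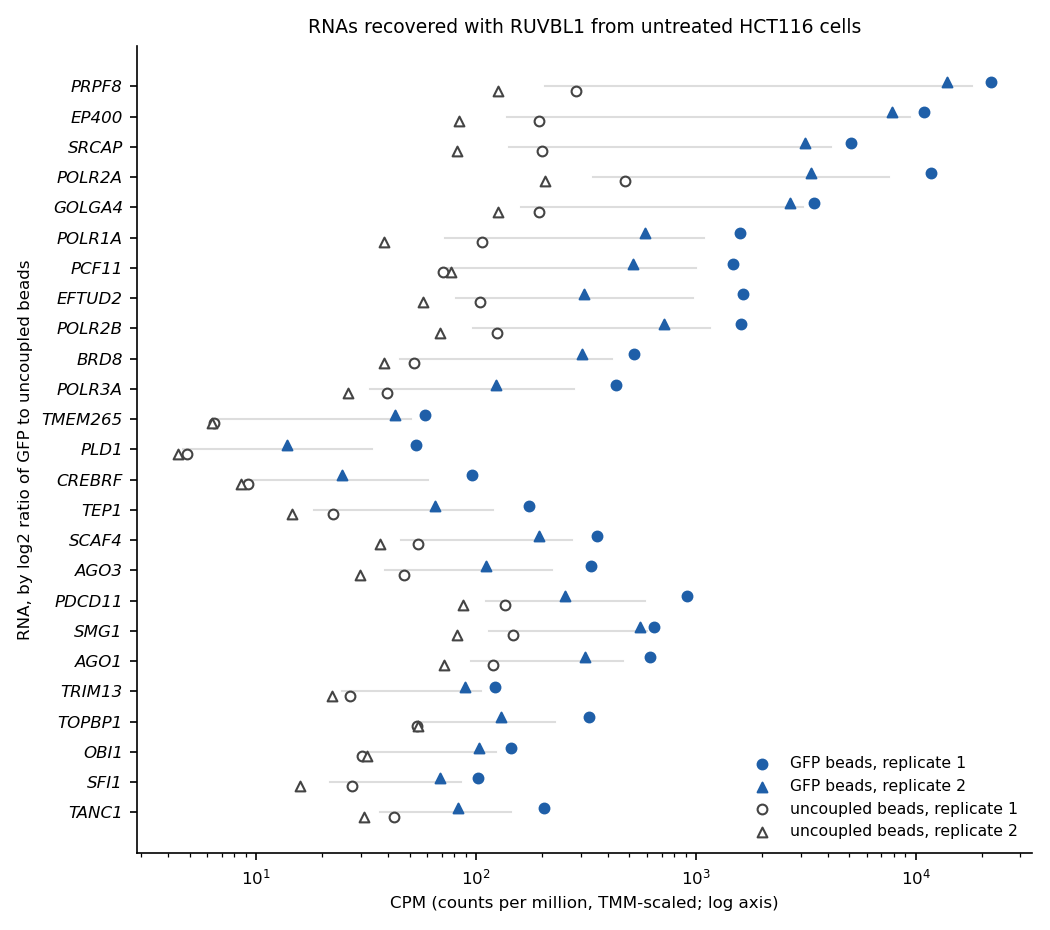
CPM on a log axis in each of the 4 libraries for the 25 called RNAs with the largest log2 ratio and a mean level of 5 CPM or more, ordered by that ratio. Filled symbols are GFP beads and open symbols uncoupled beads, with circles for replicate 1, triangles for replicate 2 and a grey line between the group means. In every RNA shown both GFP bead libraries lie to the right of both uncoupled bead libraries, as in all 146 RNAs called higher.

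Large catalytic subunits of the RNA polymerases were called in 4 of 6 cases. POLR2A, the largest subunit of RNA polymerase II (chr17:7484366-7514616), stood at 11746 and 3349 CPM on GFP beads, against 477 and 205 CPM on uncoupled beads, a log2 ratio of 4.47 ± 0.51. POLR1A, its counterpart in polymerase I, stood at 1585 and 587 CPM on GFP beads, against 106 and 38.1 CPM on uncoupled beads. POLR2B, the second largest subunit of polymerase II, stood at 1601 and 714 CPM on GFP beads, against 125 and 69.0 CPM on uncoupled beads. The groups were apart in all of these, and the ratios were 3.90 ± 0.48 for POLR1A and 3.57 ± 0.33 for POLR2B. POLR3A, the largest subunit of polymerase III, was 3.07 ± 0.42 higher, at 433 and 124 CPM on GFP beads, against 39.6 and 26.3 CPM on uncoupled beads. The second largest subunits of polymerases I and III were not called, with POLR1B at 0.62 ± 0.26 (adjusted p = 0.371) and POLR3B at 0.14 ± 0.27 (adjusted p = 0.891). The median over the 6 large subunits was 3.32, against -0.05 over 25 other subunits, of which 0 were called and which ranged from -0.54 to 0.96. Of 10 polymerase assembly factors 0 were called. With 0.914% of all genes tested called higher, 0 called among 25 or 10 genes does not set these lists apart.

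RNAs for proteins that bind the C-terminal domain of polymerase II through a CTD-interaction domain were higher in 3 of 8 tested cases. PCF11, a cleavage and termination factor (chr11:83157131-83187451), stood at 1482 and 519 CPM on GFP beads, against 70.8 and 77.1 CPM on uncoupled beads, a log2 ratio of 3.76 ± 0.36. SCAF4 and SCAF8, which restrain early polyadenylation, had ratios of 2.59 ± 0.35 and 1.53 ± 0.30. PCF11 was the only 1 called of 18 cleavage, polyadenylation and termination factors, whose median was -0.13. GOLGA4, a golgin that tethers vesicles at the trans-Golgi (chr3:37243271-37366879), stood at 3454 and 2692 CPM on GFP beads, against 194 and 126 CPM on uncoupled beads, a ratio of 4.26 ± 0.38. The other 13 golgins were not called, and GCC2, the golgin of smallest p among them, had a ratio of -0.93 ± 0.26 (adjusted p = 0.1).

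Argonaute RNAs, whose proteins carry small RNAs to their targets, were called for 3 of the 4 family members, and 3 of 8 were called in the list that adds the GW182 proteins and DICER1 (median log2 ratio 0.50). AGO1 stood at 622 and 314 CPM on GFP beads, against 119 and 71.8 CPM on uncoupled beads, a log2 ratio of 2.29 ± 0.28. The ratios were 2.53 ± 0.38 for AGO3 and 1.59 ± 0.28 for AGO4. AGO2 had a ratio of 1.10 ± 0.28 and fell just short of the threshold (adjusted p = 0.0559). Its levels of 579 and 377 CPM on GFP beads, against 282 and 164 CPM on uncoupled beads, did not overlap. Of 9 PIKK kinases and members of their TTT co-chaperone only SMG1, the kinase of nonsense-mediated decay, was called. It stood at 645 and 557 CPM on GFP beads, against 148 and 82.5 CPM on uncoupled beads, a ratio of 2.38 ± 0.30. PRKDC (0.89 ± 0.37), MTOR (0.67 ± 0.26) and TRRAP (0.55 ± 0.31) had positive ratios that did not pass the test, while ATR stood at -0.33 ± 0.27.

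Several other large nuclear proteins were among the called. In a list of 10 telomerase, nucleolar and replication-stress proteins TEP1, a telomerase and vault protein, had a log2 ratio of 2.68 ± 0.50, PDCD11, a ribosome biogenesis factor, of 2.39 ± 0.41, and TOPBP1, an activator of the checkpoint kinase ATR, of 2.07 ± 0.31. Outside the lists, PLD1, a phospholipase, stood at 53.5 and 13.9 CPM on GFP beads, against 4.87 and 4.44 CPM on uncoupled beads, a ratio of 2.85 ± 0.45. SFI1, a centrosomal protein, and TANC1, a scaffold protein, had ratios of 1.97 ± 0.36 and 1.96 ± 0.34. GTF3C1, the largest subunit of TFIIIC, was the only 1 called of 11 polymerase III initiation factors, at 1.96 ± 0.41. The calls of TEP1 and GTF3C1 were each lost in 6 of 16 alternative settings. Of 30 very long cytosolic proteins 0 were called, and the median was -0.09. Of all genes tested 0.914% were called higher, so 0 called in a list of this size, or in those below, does not set it apart. Lists with 0 members called included the prefoldin-like module (7 tested), snoRNP proteins and their assembly factors (15), the HSP90 and HSP70 system (21), the CCT chaperonin with prefoldin (14), the WASH complex (6), the proteasome (31), eIF3 (12), cytosolic ribosomal proteins (84) and respiratory chain subunits (77). The medians of these lists lay between -0.28 and -0.05. Some other lists with 0 called had medians above 0, such as the TSC complex (0.27) and immediate early genes (0.08). A positive ratio was seen in 12 of 84 ribosomal, 5 of 31 proteasomal and 20 of 77 respiratory members. The medians of the ribosomal, proteasomal and respiratory lists were below 0 under each of the 4 scalings tried. The scalings moved the median over all genes tested only between -0.09 and -0.04, so this was a weak check.

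The mRNAs of R2TP itself were not called. RUVBL1 mRNA stood at 197 and 90.8 CPM on GFP beads, against 93.5 and 41.8 CPM on uncoupled beads, so that the groups overlapped, and its log2 ratio was 1.08 ± 0.34 (adjusted p = 0.179). It was called in 4 of 16 alternative settings. RPAP3 mRNA had a ratio of 0.97 ± 0.43 (adjusted p = 0.426), RUVBL2 of 0.19 ± 0.25 and PIH1D1 of -0.54 ± 0.22, and none of the 4 passed the test. In the RPAP3 line the mRNA of that bait, RPAP3, had a ratio of 3.27 on GFP beads (adjusted p = 4.23e-13). The line difference for RPAP3 mRNA was -2.24 ± 0.53 on the log2 scale and did not pass the test (adjusted p = 0.0868).

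**Figure D3:**
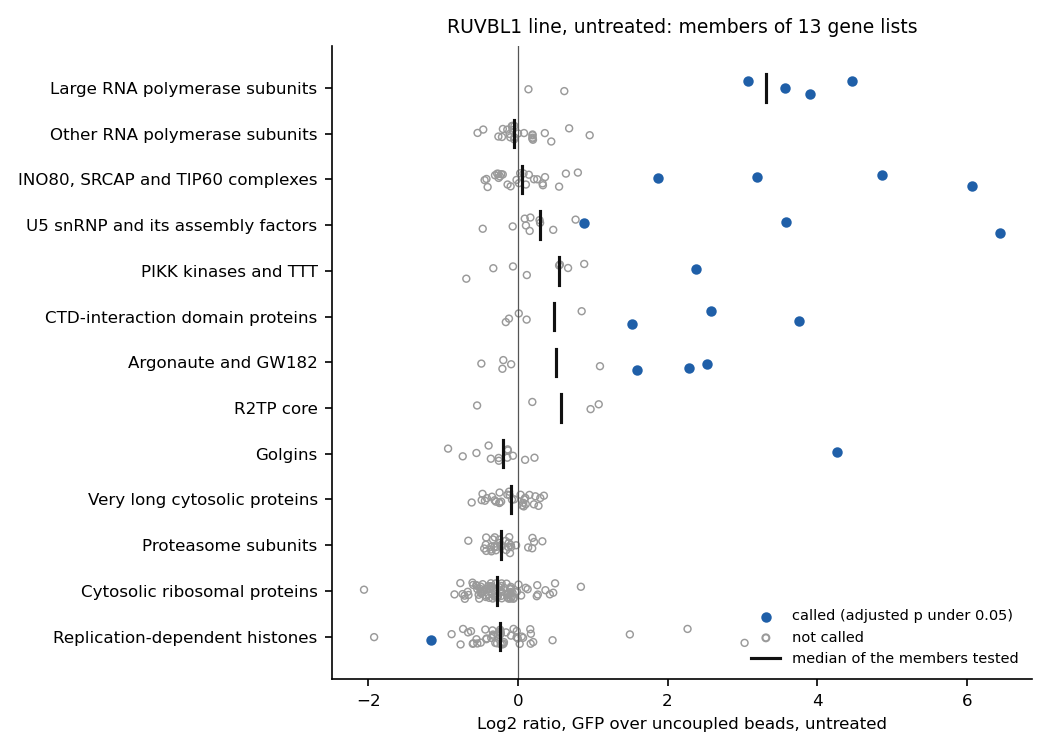
Log2 ratios (GFP over uncoupled beads) for the tested members of 13 gene lists, 1 row per list. Filled points passed the test, open points did not, and the black bar is the median of the members tested. In the large polymerase subunits 4 of 6 passed and the median was 3.32, while the other 12 medians lie between -0.28 and 0.58.

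The called RNAs were next followed in the other groups. The RPAP3 libraries were fitted apart. The puromycin, CB-6644 and combined-treatment libraries were in the 16-library fit. They added to its filter and spread but not to the untreated ratios. With the 4 untreated libraries alone 69 genes were called higher, 65 of them among the 146. Without the 4 GFP libraries given CB-6644, with or without puromycin, 403 were called higher. In the RPAP3 line, where 233 genes were higher (1.53% of those tested there) and 1 was lower (0.00658%), 37 of the 143 called RNAs that could be tested were higher as well, and 106 were not called. The 37 included PRPF8, EP400, SRCAP, GOLGA4, all called polymerase subunits, PCF11 and the Argonautes. Their median log2 ratio in RUVBL1 libraries was 2.29 (quartiles 1.59 and 3.19) and 20 of them were at least 4-fold higher. For the 106 it was 1.11 (quartiles 1.01 and 1.29) and 3 were at least 4-fold higher, namely CREBRF, SNORD24 and TRIM13. The overlap of 37 became 18 without RUVBL1 GFP replicate 1 and 14 without uncoupled replicate 2, where 58 and 40 genes were called higher in all.

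The RNAs not called with RPAP3 were mostly about 2-fold higher and lay close together in the replicates. At such a ratio the test passes more readily where replicates are close, so this closeness was favoured by the call. FAN1, a nuclease of DNA crosslink repair (chr15:30903852-30943108), stood at 94.5 and 68.5 CPM on GFP beads, against 23.9 and 23.2 CPM on uncoupled beads, a log2 ratio of 1.79 ± 0.26. In RPAP3 libraries it stood at 22.6 and 20.7 CPM on GFP beads, against 21.1 and 21.3 CPM on uncoupled beads. CDKN1A, the cell cycle inhibitor p21 (chr6:36676463-36687332), stood at 498 and 560 CPM on GFP beads, against 195 and 220 CPM on uncoupled beads, a ratio of 1.35 ± 0.25. The RPAP3 bead groups overlapped for FAN1 and not for CDKN1A, whose levels there were 280 and 330 CPM on GFP beads, against 341 and 358 CPM on uncoupled beads. TRIM13, a ubiquitin ligase of the ER membrane, and OBI1, a ubiquitin ligase of replication origins, had ratios of 2.1 ± 0.25 and 1.99 ± 0.28 with RUVBL1. With RPAP3 they were at -0.46 and -0.10. Genes named here outside the rule for named genes, after their values were seen, were TMC6 (1.73 ± 0.28), PPP1R12C (1.81 ± 0.28), SYT17 (1.92 ± 0.27), the transcription factor SP1 (1.22 ± 0.27) and the kinase AKT2 (1.00 ± 0.21).

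The difference between the baits was tested in a fit over all 24 libraries. Each bait was in its own line, so bait, line and library set could not be told apart. That limit holds for the split into 37 and 106 too. The RUVBL1 libraries held 9019665 to 33051512 counts, against 30844089 to 50394245 counts in the RPAP3 libraries. The coefficient of variation estimated by edgeR was 0.263 in the fit of the RUVBL1 line and 0.142 in that of the RPAP3 line. Across all genes 58 were more enriched with RUVBL1 (0.347% of 16695) and 10 more with RPAP3 (0.0599%). Since this test shares the 4 untreated RUVBL1 libraries with the call, members of the called set were favoured in it. The split into 106 and 37 used the untreated RPAP3 libraries of this test as well, so the counts in each are descriptions. Of the genes that passed, 51 of the 58 and 3 of the 10 were among the 146. Of the 106 RNAs not called with RPAP3, 49 were more enriched with RUVBL1, as were 2 of the 37, BRD8 (1.63 ± 0.30) and SMG1 (1.92 ± 0.34). GOLGA4 (-2.31 ± 0.44), SCAF4 (-1.97 ± 0.43) and SCAF8 (-1.68 ± 0.37) were more enriched with RPAP3. The count of 49 dropped to 8 without RPAP3 GFP replicate A, 11 without RPAP3 uncoupled replicate A, 11 without RUVBL1 GFP replicate 2, 16 without RPAP3 uncoupled replicate B, 30 without RUVBL1 GFP replicate 1 and 32 without RPAP3 GFP replicate B. The median difference over the 106 moved between 1.15 and 1.33 in those fits and the 2 others, against 1.24 with all libraries.

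In puromycin-treated cells most of the 106 RNAs were called on GFP beads too. After puromycin GFP beads held 1590 genes at a higher level than uncoupled beads did (9.95% of those tested) and 611 at a lower level (3.82%). Of the 106 RNAs not called with RPAP3, 94 were higher after puromycin, with a median log2 ratio of 1.29. Of the 37 shared with RPAP3, 14 were higher and the median was 0.73. The median over all genes tested was 0.00. The 94 became 58 without puromycin GFP replicate 2 or without puromycin uncoupled replicate 1, when 1.95% and 1.74% of all genes were called higher, while the median of the 106 stayed between 1.06 and 1.44 as each puromycin library was left out. The 14 became 1 without either of those libraries, 3 without uncoupled replicate 2 and 6 without GFP replicate 1.

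**Figure D4:**
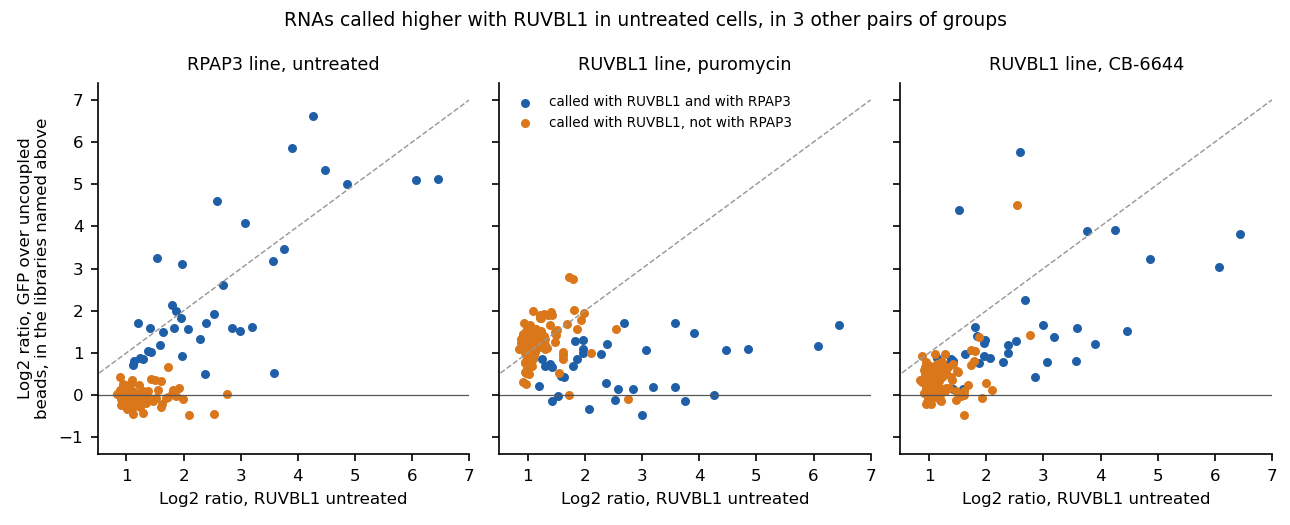
Log2 ratio (GFP over uncoupled beads) in 3 other pairs of groups, plotted against the ratio in untreated RUVBL1 cells, for RNAs called with both baits (37) and RNAs not called with RPAP3 (106). The dashed line marks equal ratios. The sets were split by the RPAP3 call, which fixes their order in the left panel. The second set has a median of 1.29 after puromycin and of 0.42 after CB-6644.

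Gene by gene, the interaction of puromycin with bead type showed 12 ratios lower after puromycin than in untreated cells (0.0751% of genes tested) and 6 higher (0.0376%). All 12 that fell were called in untreated cells and all were shared with RPAP3: PRPF8, EP400, SRCAP, POLR2A, GOLGA4, PCF11, POLR2B, BRD8, TMEM265, SCAF4, SMG1 and TOPBP1. The interaction shares the untreated libraries with the call, so it is given gene by gene. PRPF8 stood at 585 and 718 CPM on GFP beads after puromycin, against 209 and 205 CPM on uncoupled beads. Its log2 ratio there was 1.65, and the change was -4.79 ± 0.53 (adjusted p = 4.16e-05). GOLGA4 stood at 187 and 123 CPM on GFP beads after puromycin, against 160 and 150 CPM on uncoupled beads, where the groups overlapped. PCF11, at 63.5 and 54.7 CPM on GFP beads against 66.4 and 63.8 CPM on uncoupled beads, was lower in both GFP bead libraries, and its change was -3.90 ± 0.48. EP400 and SRCAP kept a ratio after puromycin that passed the test, at 1.17 and 1.08. Among the 37 shared RNAs the count of 12 was between 8 and 12 as single libraries were left out, except without GFP replicate 2 of untreated cells, when it was 18. Over all genes 22 ratios fell without that library and 34 fell and 314 rose without uncoupled replicate 2 of untreated cells.

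The weaker set gave other values. FAN1 stood at 116 and 220 CPM on GFP beads after puromycin, against 26.6 and 23.6 CPM on uncoupled beads, a log2 ratio of 2.74. CDKN1A stood at 441 and 766 CPM on GFP beads after puromycin, against 141 and 181 CPM on uncoupled beads, a ratio of 1.90. The groups were apart for both genes. Of the 106, 0 passed the test of the puromycin change, and 2 were lower with the replicate block, with no filter on low counts or without GFP replicate 2 of untreated cells. CREBRF, a regulator of the transcription factor CREB3, had a change of -2.84 ± 0.67 that did not pass (adjusted p = 0.154). After puromycin it was at 9.00 and 8.78 CPM on GFP beads, against 11.2 and 7.66 CPM on uncoupled beads. In untreated cells it was at 96.1 and 24.6 CPM on GFP beads, against 9.21 and 8.57 CPM on uncoupled beads.

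With the ATPase inhibitor the shared RNAs had the higher median ratio, as they did in untreated cells. The untreated medians were 2.29 for the 37 and 1.11 for the 106. After CB-6644, 298 genes were higher on GFP beads (1.87%) and 89 lower (0.557%), among them 14 of the 37 (median log2 ratio 1.18) and 7 of the 106 (median 0.42). Without GFP replicate 2 given CB-6644, the library that stood apart, these were 11 of the 37 and 2 of the 106. Without GFP replicate 1 they were 17 and 28, and without either uncoupled library 8 and 1. In the interaction 8 ratios were lower after CB-6644 than in untreated cells (0.0501%) and 22 higher (0.138%). The 8 were PRPF8, EP400, POLR2B, BRD8, TRIM13, SYT17, SCAMP5 and CREB3, all called in untreated cells. This interaction too shares the untreated libraries with the call, so called genes were favoured among the ratios that fell. Under the same limit, the median change was -1.1 for the 37 and -0.759 for the 106. SCAF4 and SCAF8 were the 2 called RNAs that rose. SCAF4 stood at 3510.1 and 1477 CPM on GFP beads after CB-6644, against 46.3 and 45.9 CPM on uncoupled beads, and its change in log2 ratio was 3.17 ± 0.48 (adjusted p = 0.0014). POLR2B stood at 136 and 116 CPM on GFP beads after CB-6644, against 75.7 and 67.9 CPM on uncoupled beads, and its ratio fell by 2.76 ± 0.43. GOLGA4 and PCF11 had ratios of 3.90 and 3.89 after CB-6644, and their changes of -0.36 ± 0.48 and 0.13 ± 0.46 did not pass the test.

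The 2 sets also differed in how the GFP bead libraries related to each other. These libraries made the call, and a ratio near 2-fold passes more readily where replicates are close, so the values are descriptions. GFP replicate 1 was above GFP replicate 2 in all 37 shared RNAs, with a median log2 ratio of 0.98 between the replicates (quartiles 0.60 and 1.43). Among the 106, replicate 1 was above replicate 2 in 39, and the median was -0.10. Over all genes tested the median was -0.01. Without GFP replicate 1 the median enrichment of the 37 was 1.57 and that of the 106, with the 3 snoRNAs not tested in the RPAP3 line, was 1.20. The genes of the 37 spanned a median of 85.7 kb, those of the 106 a median of 35.7 kb and all tested genes a median of 27.2 kb. Transcript and protein lengths were not analysed here.

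**Figure D5:**
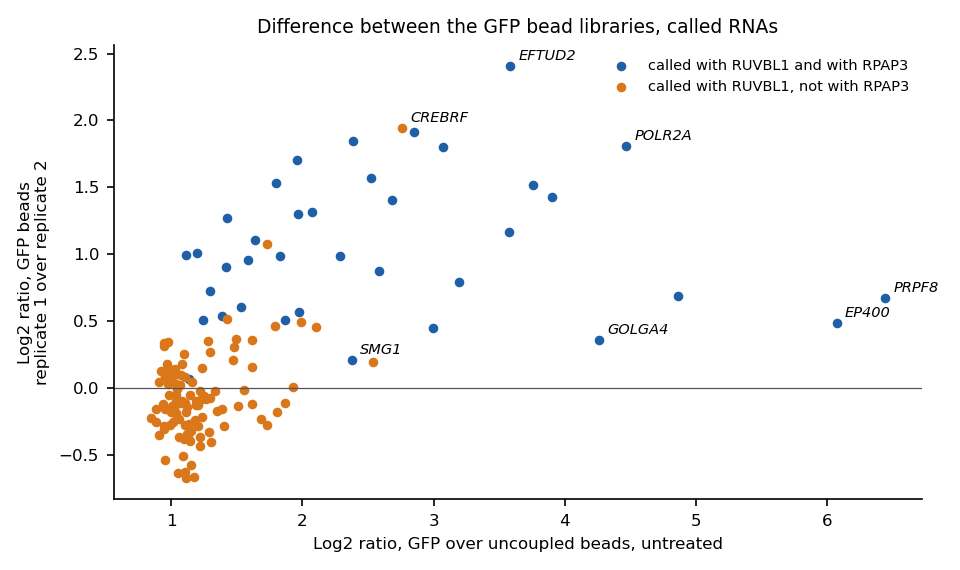
For the RNAs called with both baits and those not called with RPAP3, the log2 ratio of GFP bead replicate 1 to replicate 2 is plotted against the log2 ratio (GFP over uncoupled beads). All 37 shared RNAs lie above 0 with a median of 0.98, and the other 106 lie on both sides of 0 with a median of -0.10.

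Non-coding RNAs were few among the called. The 4 called snoRNAs were SNORD3C, a copy of U3, which directs cleavage of the ribosomal RNA precursor, and SNORD38B, SNORD33 and SNORD24, which guide ribose methylation of ribosomal RNA. All had low counts. SNORD3C (chr17:19190029-19190245) had 126 and 105 reads on GFP beads, against 10 and 7 reads on uncoupled beads, and a log2 ratio of 3.30 ± 0.49. SNORD38B had 66 and 44 reads on GFP beads, against 5 and 3 reads on uncoupled beads. SNORD33 had 73 and 57 reads on GFP beads, against 7 and 7 reads on uncoupled beads. The groups were apart in each, and SNORD3C was called in all 16 alternative settings. SNORD33 was called in 10 of 16, SNORD38B in 9 of the 14 that tested it and SNORD24 in 6 of 15. The genes that host SNORD33 and SNORD24 in their introns, RPL13A and RPL7A, were not called, at 0.27 and -0.32. U3 has near-identical copies, and SNORD3A, the copy with most reads, stood at 15.5 and 49.1 CPM on GFP beads, against 6.43 and 10.3 CPM on uncoupled beads, and was not called (adjusted p = 0.564).

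Over 134 box C/D snoRNAs the median log2 ratio was 0.80 and 89 were positive, as were 7341 of the 15976 genes tested. The 79 box H/ACA snoRNAs had a median of -0.03 with 0 called and 17 scaRNAs a median of 0.21 with 0 called. The filter on low counts ran over all 16 libraries of the line, so levels in other groups could admit some of them. Some C/D members had a log2 ratio of exactly 0 in the untreated comparison. The filter left 134 of 357 listed box C/D snoRNAs. In the RPAP3 line 72 box C/D snoRNAs were tested, with a median of 0.02, so the medians of the lines rest on different members. With RUVBL1 the C/D median was between 0.76 and 0.79 under the 3 other scalings, which shift all genes nearly alike. Most of these genes had less than 1 CPM on average, with a median of 0.604 CPM in GFP bead libraries, against 0.333 CPM in uncoupled bead libraries. After CB-6644 the called snoRNAs had ratios of 5.54 for SNORD3C, 4.07 for SNORD38B, 5.91 for SNORD33 and 4.51 for SNORD24, and their changes from untreated cells did not pass the test. Other structured RNAs had a ratio below 0 in all 27 tested, with a median of -0.98 and 0 called. They included the signal recognition particle, Y and 7SK RNAs and the RNA of RNase P. With RPAP3 the list's median was 0.29 over 23 tested, and 1 was called higher. RN7SK, the 7SK RNA, took 1.596% and 3.198% of the GFP bead counts, against 2.039% and 4.676% of the uncoupled bead counts, and its groups overlapped. RPPH1, the RNA of RNase P, stood at 5069 and 8329 CPM on GFP beads, against 9244 and 12496 CPM on uncoupled beads. The groups were apart, but the ratio of -0.70 ± 0.34 did not pass the test (adjusted p = 0.458).

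The 3 RNAs lower on GFP beads were BPNT1, a nucleotide phosphatase, H4C11, a replication-dependent histone, and CD109, a surface glycoprotein. H4C11 stood at 9.98 and 8.64 CPM on GFP beads, against 21.0 and 20.5 CPM on uncoupled beads, a log2 ratio of -1.16 ± 0.25 (adjusted p = 0.023). Histone genes have near-identical copies, so its count is uncertain. Of 49 histone genes tested it was the only 1 called, and the list's median was -0.24. BPNT1 stood at 6.78 and 3.91 CPM on GFP beads, against 15.1 and 12.4 CPM on uncoupled beads, a ratio of -1.36 ± 0.31. CD109 stood at 52.9 and 52.3 CPM on GFP beads, against 110 and 82.7 CPM on uncoupled beads, a ratio of -0.88 ± 0.21. The groups were apart in all 3, and none of the 3 was called lower with RPAP3. The call was lost in 6 of 16 alternative settings for BPNT1 and H4C11 and in 7 for CD109.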

How the data were processed

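The authors deposited a table of raw read counts per gene over all libraries. Per the submitters' processing notes, the build was hg38 and the tools included featureCounts 2.0.3, TopHat2 2.1.1, bcl2fastq 2.20.0.422 and, for quality reports, MultiQC 1.12 and FastQC 0.11.9. The kit was stranded, per the labels' protocols. How counting treated strand and reads with several placements is not given in the sources used here, so copies and overlapping genes may share reads. Positions came from RefSeq (GRCh38.p14), which matched 27757 of 27790 gene IDs and 237 of 517 names without an ID.

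The 16 RUVBL1 libraries, in 8 groups of 2, were fitted together with edgeR 4.0.16 in R 4.3.3 (filterByExpr, TMM, robust quasi-likelihood, Benjamini-Hochberg adjustment, threshold 0.05). The 8 RPAP3 libraries (15202 genes) were fitted apart, and all 24 (16695 genes) for the difference between baits. Standard errors derive from the test's F statistic, with a spread shared by all libraries of a fit and shrunk across genes. Replicates may be technical, and p-values then reflect the spread between these libraries alone. On simulated counts with the design of the untreated comparison (15532 genes), 21 of 67 2-fold changes (31.3%) were called. So were 62 of 67 4-fold changes (92.5%) and 62 of 66 8-fold changes (93.9%), beside 13 false calls. The simulated counts did not include a library that stood apart as uncoupled replicate 2 did. DESeq2 1.42.0, other scalings, filters and left-out libraries were alternatives.

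The members, gene lists and naming rule were chosen with earlier results of these data known. The rule took RUVBL1, RUVBL2, RPAP3 and PIH1D1, the 25 called genes of largest positive ratio with a mean of 5 CPM or more and groups that do not overlap, the 5 of highest CPM on GFP beads, up to 10 genes called lower, the 5 called and 5 uncalled genes nearest the threshold, up to 5 called non-coding genes, and up to 4 members of smallest p in each list. Named outside it, after their values were seen, were KAT5, SNRNP200, TRRAP, ATR, POLR1B, POLR3B, SNORD3A, RPL13A, RPL7A, RPPH1 and TMC6. So were PPP1R12C, SYT17, SCAMP5, CREB3, SP1, AKT2, KRT8, KRT19, KRT20, LGALS4, VIL1, GPX2 and RN7SK.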

Additional observations from a re-analysis of the deposited data

Results flagged for a closer look

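For 12 named genes the RUVBL1 and RPAP3 lines differed in enrichment by the interaction test over all 24 libraries (edgeR adjusted p under 0.05). The log2 ratio was higher with RUVBL1 than with RPAP3 for TRIM13 by 2.62 ± 0.30 (SE), for CREBRF by 2.80 ± 0.58, for OBI1 by 2.15 ± 0.35, for SMG1 by 1.92 ± 0.34, for FAN1 by 1.82 ± 0.31, for BRD8 by 1.63 ± 0.30 and for CDKN1A by 1.60 ± 0.31. It was lower with RUVBL1 than with RPAP3 for GOLGA4 (-2.31 ± 0.44), CHERP (-2.06 ± 0.36), SCAF4 (-1.97 ± 0.43), SCAF8 (-1.68 ± 0.37) and BDP1 (-1.51 ± 0.34). CHERP, a protein with a CTD-interaction domain, and BDP1, a subunit of TFIIIB, were not called with RUVBL1 in untreated cells, at 0.85 ± 0.30 and -0.50 ± 0.26, and had ratios of 2.97 and 1.06 with RPAP3. The adjusted p was between 1.2e-05 for TRIM13 and 0.035 for CREBRF. With groups of 2 libraries no single library could be tested as an outlier.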

How the results depend on the processing

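Of the 43 called genes among 52 named ones followed through 16 alternatives, 15 were called in every alternative, among them PRPF8, EP400, SRCAP, POLR2A, POLR2B, POLR1A, GOLGA4, PCF11, BRD8, SMG1, AGO1 and TRIM13. No called direction was reversed in any alternative run, and RUVBL2, not called, had log2 ratios from -0.02 to 0.45. The bead groups were apart in every called gene, so a reversal was unlikely from the start. The 149 genes called in untreated cells became 367 with DESeq2, 317 with no filter on low counts and 408 with all 24 libraries in the fit. Without the 4 GFP libraries given CB-6644, with or without puromycin, 430 were called. Called genes numbered 70 with the 4 untreated libraries alone and 17 when a change of more than 2-fold was tested. They numbered 43 to 193 as single libraries were left out, and 217 with the replicate number as a block. The labels give no shared batch for a number. In the 4 untreated libraries, deviations of same-numbered libraries correlated at 0.106 over genes. That 1 value cannot tell whether same-numbered libraries shared a batch. The difference between baits, 68 genes, became 208 with DESeq2, 146 with no filter, 110 with the replicate number within each line as a block and 13 to 112 as libraries were left out. The puromycin change, 18 genes, became 9 with scaling by total counts, 192 with DESeq2, 199 with no filter, 36 with the replicate block and 8 to 348 as libraries were left out. The CB-6644 change, 30 genes, became 174 with DESeq2, 284 with no filter, 53 with the replicate block and 20 to 1506 as libraries were left out. Of the called genes, those also called after puromycin (110) became 274 with DESeq2 and 31 to 140 without single libraries, those also called with RPAP3 (37) became 14 to 48, and those also called after CB-6644 (24) became 81 with DESeq2 and 12 to 48. After CB-6644 the 7 called of the 106 RNAs not called with RPAP3 became 27 with scaling by total counts and 22 with DESeq2, and the 14 of the 37 became 23 and 27. The overlap checks and the block for the difference between baits were chosen after seeing the data. The cause of these shifts was not tested. With 2 libraries a group, changes near 2-fold were at the limit of what could be called.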

Other observations

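The share of genes called higher was counted per chromosome, without a test. Chromosome 22 had 11 of its 415 tested genes called higher (2.65%), chromosome 17 had 22 of 981 (2.24%) and chromosome 16 had 13 of 729 (1.78%), against 1 of 884 on chromosome 11 (0.113%), 1 of 560 on chromosome 4 (0.179%) and 0.914% of all genes tested. On chromosomes 16, 17, 19, 20 and 22, grouped after the counts were seen, lay 46 of the 106 RNAs not called with RPAP3 (43.4%) and 10 of the 37 shared with RPAP3 (27%), against 22.9% of all genes tested. Chromosome 19, with 6 of 1108 (0.542%), lay below the 0.914% of all genes. Base composition of the transcripts was not analysed here.

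The 37 shared RNAs made up 6.309% and 3.634% of the GFP bead counts, against 0.356% and 0.1826% of the uncoupled bead counts. The 106 made up 1.036% and 1.175% of the GFP bead counts, against 0.5425% and 0.45% of the uncoupled bead counts. Genes with at least 1 read were 58.8% and 63.2% of the table in the GFP bead libraries, against 61.8% and 66.2% in the uncoupled bead libraries.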
